A study of Homo sapiens with 5 samples.

Results

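The mitochondrial ribosomal protein genes are the nuclear genes that code for the proteins of the mitochondrial ribosome. They were taken by name from the protein-coding genes of GENCODE release 29. The symbol had to be MRPL (large subunit) or MRPS (small subunit) followed by a number. The rule itself uses no measured value, but the members were chosen with earlier results of these data known. There were 74 members among the 51055 genes counted, 46 of the large and 28 of the small subunit. The annotation names 78 such genes, and MRPL12, MRPL45, MRPL46 and MRPS21 were not analysed here.

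The mitochondrial ribosome translates the few mRNAs transcribed from mitochondrial DNA, all of which code for subunits of the respiratory chain and the ATP synthase. Its proteins are made in the cytosol and imported, and they join ribosomal RNAs transcribed inside the organelle. The small subunit reads the mRNA and the large subunit forms the peptide bond, and many of the proteins descend from bacterial ribosomal proteins while others occur only in mitochondria.

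The samples were 5 RNA libraries of HL60, a human promyelocytic leukaemia cell line. The 2 ZIP libraries came from cells carrying the miRZip-378a-3p lentivector, which expresses a hairpin that yields RNA antisense to the microRNA miR-378a-3p. The 2 SCR libraries came from cells carrying the control lentivector, called scramble in some of the labels and empty in others, and 1 UNT library came from untransduced cells. ZIP and SCR cells were transduced at a multiplicity of infection of 20 and kept in puromycin at 2 µg/mL from day 3 to day 8, and both vectors carry green fluorescent protein. The UNT cells had neither vector nor, as far as the labels say, selection, so vector, virus and puromycin cannot be told apart in any comparison with UNT. No label says whether 2 libraries of a group came from separate transductions, and the p-values then rest on a spread between libraries that may be technical only.

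The libraries held 24406580 to 30925067 counts. MPO, a gene that defines the promyelocytic HL60 line, was abundant in all 5, at 17049 and 16583 CPM in ZIP libraries, 9966 and 9991 CPM in SCR libraries and 19021 CPM in UNT. Markers of promyelocytes, the granule genes MPO, ELANE, PRTN3, AZU1 and CTSG, summed to 22567 and 21914 CPM in the ZIP libraries, 11571 and 11572 CPM in the SCR libraries and 24318 CPM in UNT, and all 5 were lowest in SCR. The 3 monocyte markers CD14, CSF1R and VCAN summed to 10.8 and 11.2 CPM in ZIP, 116 and 119 CPM in SCR and 3.46 CPM in UNT, and all 3 were highest in SCR. HBB of erythroid cells, KRT19 of epithelium and COL3A1 of fibroblasts had no count in any library. The part of these marker differences in the results was not tested, and in bulk RNA fewer cells of a type cannot be told apart from less RNA per cell. The host gene MIR378A had 2 counts in 1 ZIP library and none in the other 4, so the table holds no usable measure of the microRNA.

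The microRNA is shown with its seed, bases 2 to 8, in capitals, because the seed rule counts transcripts with the matching site AGTCCAG as its candidate targets. The mature sequence is RefSeq's, on the plus strand at chr5:149732867-149732888 of GRCh38.p14.
hsa-miR-378a-3p: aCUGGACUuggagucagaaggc
The site occurred after the stop codon in 5 of the 74 members (6.76%), against 1961 of 19641 protein-coding genes (9.98%), read in the transcript of each gene that GENCODE release 29 ranks as principal, the longest coding sequence deciding ties. The stretch after the stop codon had a median of 398 bases in the members and 820 bases in all protein-coding genes. The 5 sites follow with the letters that pair with the seed in capitals, since these are the members the seed rule picks out.
MRPS25: tattaataAGTCCAGtggaccac
MRPL57: attgcttgAGTCCAGcttgggca
MRPS11: atcacttgAGTCCAGttagagac
MRPS16: tccactacAGTCCAGcctgggtg
MRPL42: atcacttgAGTCCAGaagttctg
Counted from the first base after the stop codon the sites begin at base 2989, 878, 798, 1881 and 8332, in that order. A letter match is a description and does not show that the microRNA binds there.

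Promoters are shown because most members moved together. The 120 bases before the start are shown for the member with the largest rise and the largest fall between ZIP and SCR cells in each subunit among members with 1 listed start, all on the plus strand of GRCh38.p14 from RefSeq. Capitals mark the letters of 3 searched motifs, the core GCATGCGC bound by NRF1, the ETS core CCGGAAG bound by GABPA and the SP1 core GGGCGG, on either strand.
MRPL32 at chr7:42932256-42932375: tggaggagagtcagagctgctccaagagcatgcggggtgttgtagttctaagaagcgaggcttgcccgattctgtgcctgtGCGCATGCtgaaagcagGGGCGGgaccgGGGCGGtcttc
MRPL33 at chr2:27771599-27771718: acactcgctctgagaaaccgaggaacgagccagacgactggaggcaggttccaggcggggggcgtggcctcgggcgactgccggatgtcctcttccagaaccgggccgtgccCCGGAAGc
MRPS7 at chr17:75261759-75261878: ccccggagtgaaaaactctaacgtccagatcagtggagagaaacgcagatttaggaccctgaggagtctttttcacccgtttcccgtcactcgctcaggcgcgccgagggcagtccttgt
MRPS9 at chr2:105037949-105038068: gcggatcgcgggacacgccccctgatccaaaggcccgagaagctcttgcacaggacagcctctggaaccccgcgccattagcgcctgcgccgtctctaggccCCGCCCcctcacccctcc
MRPL32 and MRPS7 were among the members higher in ZIP than in SCR cells, and MRPL33 and MRPS9 among those lower. MRPL32 held an NRF1 core and a pair of SP1 cores in this window, MRPL33 an ETS core, MRPS9 an SP1 core and MRPS7 none of the letters searched.

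The promoter table listed 81 windows for 65 of the member genes, each reaching from 250 bases before to 50 bases after a start, among 35116 windows of all genes. The ETS core lay in 39.5% of the member windows, against 10.3% of all windows and 12.8% of the windows of protein-coding genes. The YY1 letters AAGATGGC lay in 25.9% of the member windows, against 2.89% of all and 3.53% of protein-coding windows. The NRF1 core lay in 7.41% of the member windows, against 3.05% of all and 3.74% of protein-coding windows. The SP1 core lay in 61.7%, against 44.95% of all and 56.3% of protein-coding windows, and the E-box CACGTG, the letters bound by MYC and MAX, in 9.88%, against 7.26% and 8.34%. The 5 motifs share no stretch that makes a match to 1 of them a match to another. Some windows belong to the same gene and overlap, so windows are not independent.

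The YY1 letters stood out by their place. Of 20 distinct matches in 19 member genes, 14 lay after the start and 16 on the strand of the gene, with a median position of base 12 of the transcript. They contain ATG, and in 12 of the 74 members (16.2%) the annotated start codon itself lay in AAGATGGC, against 491 of 18605 protein-coding genes with an annotated start codon (2.64%). The windows of 3 such members show the letters, in capitals, over the start of the protein, from RefSeq's GRCh38.p14.
MRPS7 at chr17:75261887-75261916, plus strand: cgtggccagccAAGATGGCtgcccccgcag
MRPS18A at chr6:43687764-43687793, minus strand: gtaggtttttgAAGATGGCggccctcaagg
MRPS27 at chr5:72320206-72320235, minus strand: tggtacgctccAAGATGGCtgcctccatag
In these members a match to the YY1 letters and the coding start were the same bases. Among tested members with a listed window, the median log2 fold change between ZIP and SCR cells was 0.05 with the YY1 letters and 0.22 without them. It was 0.05 with and 0.19 without the NRF1 core, and 0.12 with and 0.19 without the E-box. For the ETS core it was 0.20 with and 0.17 without, and for the SP1 core 0.21 and 0.18. The NRF1 core lay in the windows of 6 member genes and the E-box in those of 8.

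The members on which the results turn lie apart in the genome, in GENCODE release 29 coordinates of GRCh38. MRPL32 spans chr7:42932200-42948958, MRPL3 chr3:131462212-131502983, MRPL33 chr2:27771717-27988087, MRPL18 chr6:159789812-159798436, MRPS2 chr9:135499984-135504673, MRPS12 chr19:38930548-38933162, MRPS9 chr2:105037983-105099960 and MRPS36 chr5:69217760-69230129. The counts are per whole gene, over its exons.

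Levels are given as CPM, a gene's count relative to the total of its library after TMM scaling, and where genes are compared with each other as CPM per kilobase of transcript. On that per-length scale the large subunit genes had a median level of 42.2 and the small subunit genes of 36.7 over the 5 libraries. The highest levels per kilobase were 171 for MRPL33, 164 for MRPS34, a small subunit protein found only in mitochondria, and 140 for MRPL3, the homologue of a bacterial protein near the peptidyl transferase centre. MRPL23 at 131 and MRPL37 at 120 followed. The lowest was MRPL30 at 0.12, with 4 to 13 counts per library, then MRPL53 at 1.93, with 38 to 82 counts. MRPL30 shares exon sequence with AC079447.1 and AC092587.1, and MRPL53 with CCDC142, each on the same strand. The part of shared exons in these low levels was not tested. MRPL42 at 5.23 was counted against a transcript of 15.6 kb, so its place in the order depends on the transcript chosen. The level of MRPL33 per kilobase was 110 and 107 in ZIP, 258 and 263 in SCR and 115 in UNT.

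Between ZIP and SCR cells, the comparison that asks what the antisense vector changed relative to its control vector, most members were higher in ZIP cells. A member was called higher or lower where edgeR's quasi-likelihood test over all 14643 genes tested gave a Benjamini-Hochberg adjusted p under 0.05. Of the 73 members tested 42 were higher, where 32.2% of all genes tested were, and 12 were lower, where 33.2% of all genes were. The members' median log2 fold change was 0.17, and that of all genes tested -0.002. Both vector groups had 2 libraries, and 65.4% of all genes passed the test, so a call by itself was common and the tilt to one side is what set the members' counts apart from the background shares. Past a log2 fold change of 0.32 in either direction, a limit added after seeing the data, 17 members were higher, where 18.8% of all genes were, and 6 were lower, where 23.4% were. With libraries scaled by their totals alone, the median of all genes became -0.06 and the split of members 36 higher and 19 lower. Of all 14643 genes tested, 4026 were then higher and 5492 lower.

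**Figure D1:**
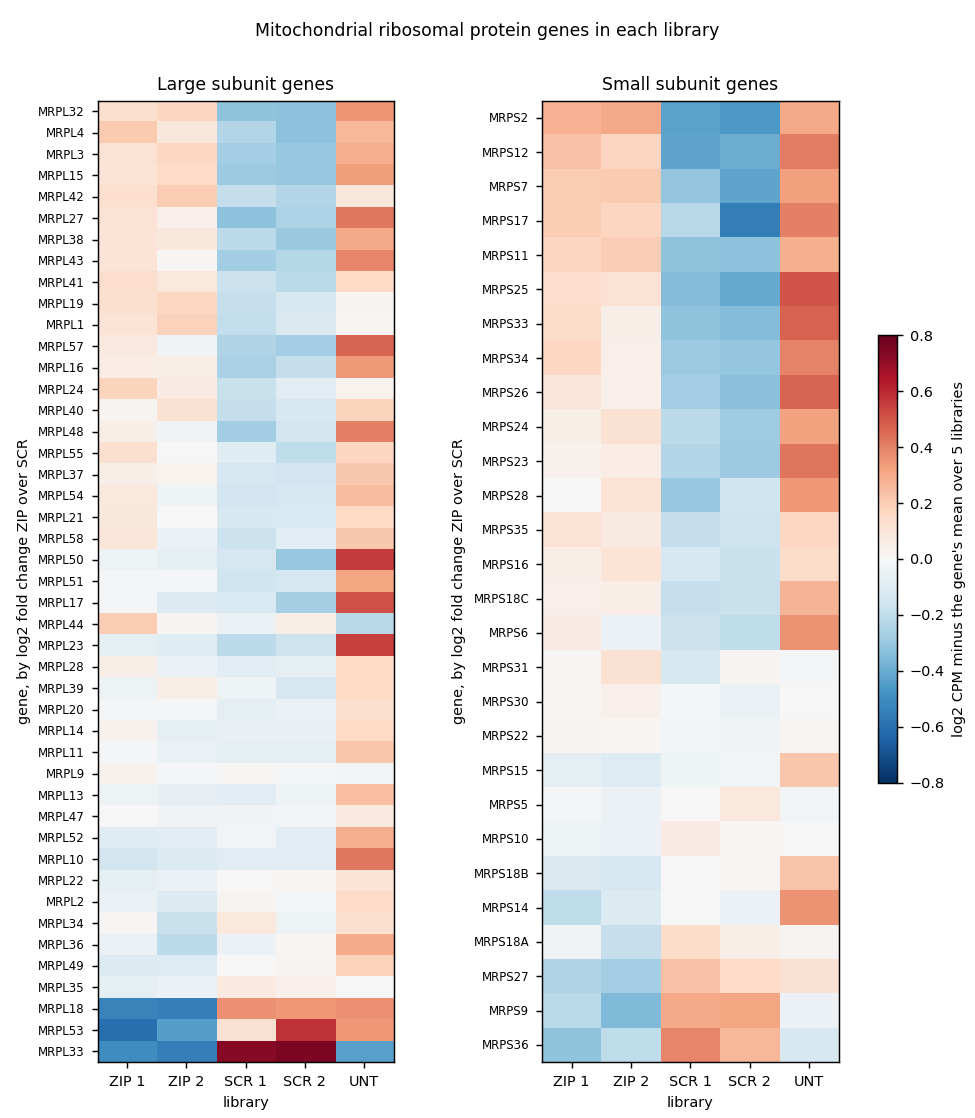
Level of 73 of the 74 members in each library, as log2 CPM minus the gene's mean over the 5 libraries (colour), with large subunit genes on the left and small subunit genes on the right, ordered by the log2 fold change of ZIP over SCR. MRPL30, at 4 to 13 counts, is left out. Most genes are at their lowest in the SCR columns and at their highest in UNT, while MRPL33, MRPS9 and MRPS36 are highest in SCR.

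In the large subunit 26 of 45 tested genes were higher in ZIP than in SCR cells, 5 were lower and 14 passed in neither direction, with a median log2 fold change of 0.14. The largest rise was that of MRPL32, a protein whose maturation by a mitochondrial protease precedes ribosome assembly in mouse and yeast. It had 55.5 and 57.3 CPM in ZIP libraries, against 40.6 and 40.6 CPM in SCR libraries (log2 fold change 0.47 ± 0.044, adjusted p = 7.1e-09; ± is the SE throughout). MRPL3 had 256 and 265 CPM in ZIP libraries, against 195 and 192 CPM in SCR libraries (log2 fold change 0.43 ± 0.028, adjusted p = 4.08e-11), the largest difference in CPM of any member that rose. For both genes ZIP lay below UNT, which was at 64.8 CPM for MRPL32 and 289 CPM for MRPL3. MRPL4, whose bacterial homologue lines the exit tunnel for the growing peptide, had 150.2 and 138 CPM in ZIP libraries, against 110.1 and 103 CPM in SCR libraries (log2 fold change 0.44 ± 0.038, adjusted p = 2.9e-09). MRPL15, a further homologue of a bacterial protein, had 75.7 and 78.2 CPM in ZIP libraries, against 57.4 and 56.96 CPM in SCR libraries (log2 fold change 0.43 ± 0.037, adjusted p = 2.21e-09). MRPL42, found only in mitochondria and one of the 5 members with the seed site shown above, had 88.9 and 92.9 CPM in ZIP libraries, against 70.7 and 68.7 CPM in SCR libraries (log2 fold change 0.38 ± 0.035, adjusted p = 5.8e-09). Both ZIP libraries lay above both SCR libraries in these 5 genes, as the rule that named them required.

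The 5 large subunit genes that were lower in ZIP than in SCR cells fell into a strong and a weak set. MRPL33, the homologue of a small bacterial protein at the exit site for tRNA, had 57.2 and 55.2 CPM in ZIP libraries, against 134 and 136 CPM in SCR libraries, a fall of 58.3% (log2 fold change -1.26 ± 0.033, adjusted p = 1.15e-17). UNT, at 59.7 CPM, lay near the ZIP libraries, so the SCR libraries were the pair that stood apart. MRPL18, whose bacterial homologue binds 5S ribosomal RNA, had 55.96 and 55.5 CPM in ZIP libraries, against 104 and 103 CPM in SCR libraries (log2 fold change -0.89 ± 0.033, adjusted p = 4.48e-15). Here UNT, at 105 CPM, lay with the SCR libraries, and the ZIP pair stood apart. MRPL53 had 1.40 and 1.57 CPM in ZIP libraries, against 2.32 and 3.19 CPM in SCR libraries (log2 fold change -0.90 ± 0.21, adjusted p = 0.000984), on few counts. MRPL35 had 82.6 and 83.9 CPM in ZIP libraries, against 91.4 and 89.4 CPM in SCR libraries (log2 fold change -0.12 ± 0.032, adjusted p = 0.0026), and MRPL49 had 66.5 and 66.8 CPM in ZIP libraries, against 71.8 and 72.7 CPM in SCR libraries (log2 fold change -0.12 ± 0.035, adjusted p = 0.00674), both small differences. Their calls were lost with 1 library left out, MRPL35 without SCR 1 (adjusted p = 0.0581) and MRPL49 without SCR 2 (adjusted p = 0.0592).

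Of members named for their roles, MRPL58, a peptidyl-tRNA hydrolase that releases stalled ribosomes, had 42.7 and 38.7 CPM in ZIP libraries, against 35.4 and 37.4 CPM in SCR libraries (log2 fold change 0.17 ± 0.055, adjusted p = 0.0124), a call that was lost without ZIP 1 (adjusted p = 0.258) and without SCR 1 (adjusted p = 0.0853). MRPL41, a mitochondrial protein reported to bind BCL2, had 44.4 and 42.8 CPM in ZIP libraries, against 35.7 and 34.6 CPM in SCR libraries (log2 fold change 0.31 ± 0.049, adjusted p = 1.21e-05). MRPS30 and MRPS18A carry small subunit names, yet their proteins sit in the large subunit. MRPS30 had 93.1 and 94.8 CPM in ZIP libraries, against 91.7 and 88.8 CPM in SCR libraries and did not pass the test (log2 fold change 0.06 ± 0.032, adjusted p = 0.112). MRPS18A had 16.5 and 14.8 CPM in ZIP libraries, against 18.7 and 17.4 CPM in SCR libraries and was lower in ZIP cells (log2 fold change -0.19 ± 0.076, adjusted p = 0.0309), which was lost without SCR 1 (adjusted p = 0.209) and without ZIP 2 (adjusted p = 0.241).

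In the small subunit 16 of 28 genes were higher in ZIP than in SCR cells, 7 were lower and 5 passed in neither direction, with a median log2 fold change of 0.23. The largest rise of any member was that of MRPS2, homologue of the bacterial protein S2. It had 82.7 and 84.3 CPM in ZIP libraries, against 50.8 and 49.6 CPM in SCR libraries, a rise of 66.3% (log2 fold change 0.73 ± 0.037, adjusted p = 4.95e-13), and UNT, at 84.4 CPM, lay with ZIP. MRPS12, homologue of the bacterial decoding centre protein that streptomycin resistance mutations alter, had 68.8 and 65.9 CPM in ZIP libraries, against 43.7 and 44.3 CPM in SCR libraries, a rise of 53.3% (log2 fold change 0.62 ± 0.042, adjusted p = 5.73e-11). MRPS7, whose bacterial homologue starts the assembly of the head of the subunit, had 96.9 and 97.5 CPM in ZIP libraries, against 67.7 and 62.8 CPM in SCR libraries (log2 fold change 0.58 ± 0.036, adjusted p = 1.9e-11). The SCR pair was lowest of all 5 libraries for each of these 3 genes. MRPS17 had 12.01 and 11.8 CPM in ZIP libraries, against 8.94 and 7.11 CPM in SCR libraries (log2 fold change 0.57 ± 0.10, adjusted p = 6.51e-05), with its SCR libraries further apart, relative to their level, than those of the other named rises. MRPS11, a protein of the platform next to the mRNA exit and a carrier of the seed site, had 44.96 and 45.7 CPM in ZIP libraries, against 31.9 and 31.8 CPM in SCR libraries (log2 fold change 0.51 ± 0.048, adjusted p = 1.15e-08). MRPS6, homologue of a bacterial platform protein, had 26.2 and 24.3 CPM in ZIP libraries, against 22.3 and 21.8 CPM in SCR libraries (log2 fold change 0.21 ± 0.062, adjusted p = 0.00691), lost without ZIP 1 (adjusted p = 0.107).

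Among the 7 small subunit genes that were lower in ZIP cells, MRPS36 and MRPS9 fell most. MRPS36, whose protein has been reported as part of the 2-oxoglutarate dehydrogenase complex rather than the ribosome, had 10.8 and 11.8 CPM in ZIP libraries, against 17.8 and 16.3 CPM in SCR libraries and 12.4 CPM in UNT (log2 fold change -0.60 ± 0.082, adjusted p = 1.97e-06). MRPS9, whose bacterial homologue reaches the site of the peptidyl-tRNA, had 26.8 and 24.5 CPM in ZIP libraries, against 38.4 and 38.8 CPM in SCR libraries and 30.2 CPM in UNT (log2 fold change -0.58 ± 0.056, adjusted p = 1.52e-08). SCR was the highest group for both genes. MRPS27, an RNA-binding protein with pentatricopeptide repeats, had 79.1 and 77.3 CPM in ZIP libraries, against 110.1 and 104 CPM in SCR libraries (log2 fold change -0.45 ± 0.034, adjusted p = 3.19e-10), and MRPS14 had 28.4 and 30.3 CPM in ZIP libraries, against 32.7 and 31.7 CPM in SCR libraries (log2 fold change -0.14 ± 0.055, adjusted p = 0.0348). The call of MRPS14 was lost without SCR 1 (adjusted p = 0.178) and without ZIP 1 (adjusted p = 0.247). MRPS27 and MRPS36 lie on chromosome 5, where 57.9% of the 532 protein-coding genes tested were lower in ZIP than in SCR cells. The median log2 fold change there was -0.24. Against UNT, 57.8% of the 562 genes tested on it were higher and 15.7% lower in SCR, with a median of 0.38. In ZIP against UNT 40.9% were higher and 22.6% lower, with a median of 0.16. Of the 5 members on that chromosome, MRPL22, MRPL36, MRPS27, MRPS30 and MRPS36, none was higher in ZIP than in SCR cells and 2 were lower. The part of the chromosome in these falls was not tested.

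The 3 homologues of bacterial S18 did not share a direction. MRPS18C, which takes the place of S18 in the small subunit, had 19.5 and 19.6 CPM in ZIP libraries, against 16.7 and 16.7 CPM in SCR libraries (log2 fold change 0.23 ± 0.067, adjusted p = 0.00528). MRPS18B, in the small subunit at another place, had 76.9 and 75.8 CPM in ZIP libraries, against 83.7 and 84.4 CPM in SCR libraries (log2 fold change -0.14 ± 0.033, adjusted p = 0.00107). With the fall of MRPS18A given above, 1 of the 3 was higher and the other 2 were lower in ZIP than in SCR cells. No test between genes was made. With DESeq2 the calls of MRPL35, MRPL49, MRPL58, MRPS6, MRPS14 and MRPS18A between ZIP and SCR cells were lost (adjusted p of 0.0645 to 0.219).

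**Figure D2:**
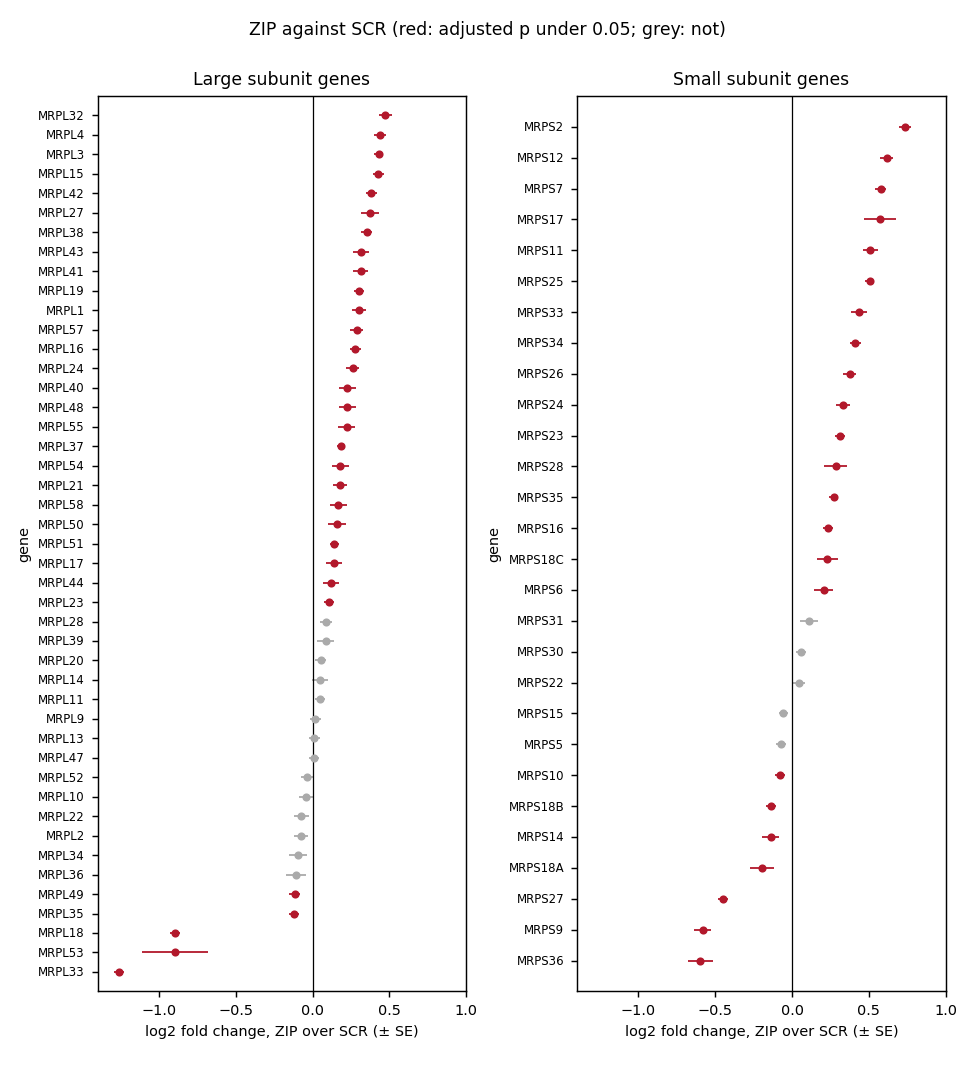
Log2 fold change of ZIP over SCR for each tested member (points) with its SE (bars), large subunit on the left and small subunit on the right, red where the adjusted p was under 0.05. The points run from 0.73 for MRPS2 to -1.26 for MRPL33, and MRPL33, MRPL53 and MRPL18 lie apart from the other large subunit genes.

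By descent, 23 of 45 tested members classed as homologues of bacterial ribosomal proteins were higher in ZIP than in SCR cells. Of these 45, 8 were lower, and the median log2 fold change was 0.11. Of the 27 members classed as having no such homologue 19 were higher and 3 lower, with a median of 0.18. MRPS36 was placed in neither set. The difference between the sets was not tested. All 5 members with the seed site were higher in ZIP cells, by log2 fold changes of 0.23 to 0.51, beside 37 of the 68 tested members without it. The same 5 were all lower in SCR than in UNT cells, with a median of -0.61, beside 73.9% of the 69 members without the site. In ZIP against UNT none of the 5 was higher and 2 were lower, with a median of -0.10, beside 66.7% lower without the site. Over all genes, 35.4% of the 1372 tested protein-coding genes with the site were higher and 37.2% lower in ZIP than in SCR cells. Their median was -0.02, and of the 10742 without it 34.5% were higher, with a median of -0.009. Of the 1411 genes with the site tested against UNT, 43.2% were higher and 31.9% lower in SCR, with a median of 0.13. In ZIP against UNT 38.0% of them were higher and 26.8% lower.

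The control vector itself was set against untransduced cells in SCR against UNT. The single UNT library was assumed to vary like the other 2 groups, since the fit over all 5 libraries took its spread from the ZIP and SCR pairs. Members were mostly lower in SCR cells. Of the 74 members 56 were lower, where 32.2% of the 15832 genes tested were, and 4 were higher, where 32.7% of all genes were. In this comparison 64.9% of all genes passed. The median log2 fold change was -0.34 over the members and 0.02 over all genes tested. In the large subunit 37 of 46 genes were lower and 2 higher, with a median of -0.32, and in the small subunit 19 of 28 were lower and 2 higher, with a median of -0.42. Past the limit of 0.32 on the log2 scale 37 members were lower, where 23.6% of all genes were, and 3 were higher, where 26.5% were. With libraries scaled by their totals alone the median of all genes became 0.13, that of the members -0.23, and 47 members were lower and 10 higher. Of all 15832 genes tested, 4121 were then lower and 6157 higher.

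The largest fall was that of MRPS25, a small subunit protein found only in mitochondria, which had 88.6 and 85.1 CPM in SCR libraries, against 159 CPM in UNT (log2 fold change -0.88 ± 0.037, adjusted p = 1.91e-15). MRPS12 had 43.7 and 44.3 CPM in SCR libraries, against 77.5 CPM in UNT (log2 fold change -0.82 ± 0.049, adjusted p = 9.46e-13). MRPS33, MRPS17 and MRPS26 followed with log2 fold changes of -0.81 ± 0.062, -0.79 ± 0.12 and -0.77 ± 0.049. The UNT library lay above both SCR libraries in each of these genes, as the rule that named them required. In the large subunit MRPL50, found only in mitochondria, had 30.9 and 27.5 CPM in SCR libraries, against 49.9 CPM in UNT (log2 fold change -0.77 ± 0.068, adjusted p = 7.42e-10), and MRPL23, by the exit tunnel in bacteria, had 81.6 and 84.2 CPM in SCR libraries, against 138 CPM in UNT (log2 fold change -0.73 ± 0.037, adjusted p = 4.75e-14). MRPL57 had 54.2 and 52.95 CPM in SCR libraries, against 88.6 CPM in UNT (log2 fold change -0.73 ± 0.049, adjusted p = 6.78e-12). MRPL27, which reaches into the peptidyl transferase centre in bacteria, and MRPL17 had log2 fold changes of -0.71 ± 0.069 and -0.70 ± 0.057.

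The 4 members higher in SCR than in UNT were MRPL33, MRPL44, MRPS9 and MRPS36. MRPL33 had 134 and 136 CPM in SCR libraries, against 59.7 CPM in UNT (log2 fold change 1.18 ± 0.042, adjusted p = 7.97e-17). MRPL44, a protein with a ribonuclease III fold, had 50.6 and 53.9 CPM in SCR libraries, against 44.7 CPM in UNT (log2 fold change 0.23 ± 0.067, adjusted p = 0.00527). The call of MRPL44 was lost with DESeq2 (adjusted p = 0.0553). MRPS9 and MRPS36 had log2 fold changes of 0.35 ± 0.070 and 0.46 ± 0.10, with adjusted p of 0.00012 and 0.000405. MRPL58, MRPL41, MRPS6 and MRPS18B were lower in SCR, with log2 fold changes of -0.34 ± 0.066, -0.35 ± 0.061, -0.55 ± 0.074 and -0.22 ± 0.039. MRPS30 and MRPS18A did not pass, at -0.04 ± 0.040 and 0.08 ± 0.094.

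ZIP against UNT asks how far the cells with the antisense vector differed from untransduced cells, and it uses the same UNT library as the comparison above. Of the 74 members 48 were lower in ZIP, where 29.7% of all genes tested were, and 3 were higher, where 28.5% of all genes were. The test passed 58.2% of all genes. The median log2 fold change was -0.20 over the members and 0.002 over all genes. In the large subunit 32 of 46 genes were lower and 3 higher, with a median of -0.20, and in the small subunit 16 of 28 were lower and none higher, with a median of -0.22. Past the limit of size 21 members were lower, where 20% of all genes were, and MRPL44 alone was higher, where 20.6% were. DESeq2 called 31 members lower and 1, MRPL44, higher, where it called 2985 of all 15832 genes lower and 3283 higher. With libraries scaled by their totals alone 38 members were lower and 5 higher, where 4208 of all genes were lower and 5018 higher.

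The 3 higher members were MRPL44, MRPL1 of the stalk beside the tRNA exit, and MRPL19. MRPL44 had 60.01 and 53.1 CPM in ZIP libraries, against 44.7 CPM in UNT (log2 fold change 0.35 ± 0.066, adjusted p = 9.22e-05), MRPL1 had 54.9 and 57.8 CPM in ZIP libraries, against 51.4 CPM in UNT (log2 fold change 0.13 ± 0.055, adjusted p = 0.0467), and MRPL19 had 92.6 and 94.8 CPM in ZIP libraries, against 85.9 CPM in UNT (log2 fold change 0.13 ± 0.041, adjusted p = 0.0115). The rises of MRPL1 and MRPL19 were small, and that of MRPL1 did not pass without ZIP 2 (adjusted p = 0.111). With DESeq2 neither was called (adjusted p = 0.262 for MRPL1 and 0.153 for MRPL19), and without the filter on low counts MRPL1 was not (adjusted p = 0.0604). The largest fall was that of MRPL18, with 55.96 and 55.5 CPM in ZIP libraries, against 105 CPM in UNT (log2 fold change -0.91 ± 0.040, adjusted p = 8.61e-15), followed by MRPL53 at a log2 fold change of -0.87 ± 0.26, which did not pass without ZIP 1 (adjusted p = 0.0571). MRPL23, MRPL50 and MRPL17 were lower at log2 fold changes of -0.63 ± 0.037, -0.61 ± 0.066 and -0.56 ± 0.055. In the small subunit MRPS14, a protein of the decoding head in bacteria, had 28.4 and 30.3 CPM in ZIP libraries, against 42.01 CPM in UNT (log2 fold change -0.52 ± 0.065, adjusted p = 3.75e-07). MRPS26, MRPS23, MRPS27 and MRPS25 were lower as well, at -0.39 ± 0.047, -0.38 ± 0.039, -0.37 ± 0.042 and -0.37 ± 0.036 on the log2 scale.

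Several members did not pass the test between ZIP and UNT. MRPL33 had a log2 fold change of -0.08 ± 0.046 (adjusted p = 0.123), MRPS2 of -0.02 ± 0.042 (adjusted p = 0.762) and MRPS36 of -0.14 ± 0.11 (adjusted p = 0.291). MRPL41, MRPS30 and MRPS18A did not pass either, at -0.04 ± 0.058, 0.02 ± 0.040 and -0.12 ± 0.095. MRPS12, MRPS6 and MRPS18B were lower in ZIP, at log2 fold changes of -0.20 ± 0.046, -0.34 ± 0.072 and -0.36 ± 0.039. MRPL58 was lower at -0.18 ± 0.065, which did not pass without ZIP 2 (adjusted p = 0.166). The falls of MRPL53, MRPL58 and MRPS12 did not pass with DESeq2 (adjusted p = 0.122, 0.211 and 0.0598, in that order).

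**Figure D3:**
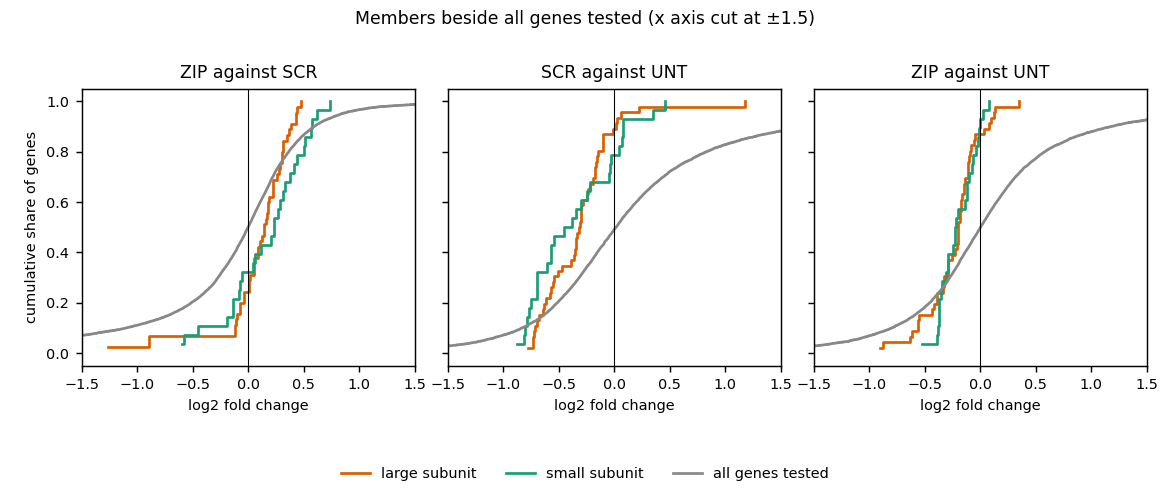
Cumulative share of genes (vertical axis) by log2 fold change (horizontal axis) in each comparison for large subunit genes, small subunit genes and all genes tested, with the axis ending at 1.5 on either side. Between ZIP and SCR the member curves lie to the right of the curve of all genes over their lower and middle part, with medians of 0.14 and 0.23. They lie to its left over most of their length in SCR against UNT and in their upper part in ZIP against UNT.

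Transcript length moved with both comparisons with UNT. Among protein-coding genes with a transcript of up to 1 kb the median log2 fold change was -0.33 in SCR against UNT and -0.33 in ZIP against UNT, and among those over 4 kb it was 0.22 and 0.24. Of the 74 members 58 had transcripts of up to 2 kb. The 15 members of up to 1 kb had medians of -0.31 and -0.21, close to the value of all short genes or above it. The 43 members of 1 to 2 kb had medians of -0.34 in SCR against UNT and -0.20 in ZIP against UNT, beside -0.18 and -0.19 for protein-coding genes of that length. The 12 members of 2 to 4 kb had -0.24 and -0.23, beside -0.007 and -0.02, and the 4 members over 4 kb, MRPL42, MRPS23, MRPS25 and MRPS33, had -0.75 and -0.37. Between ZIP and SCR no such slope was seen, with medians of -0.01, -0.02, -0.03 and 0.02 over protein-coding genes in the 4 bands of length, against 0.17, 0.14, -0.07 and 0.41 over the members. The part of length in the falls against UNT was not tested.

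**Figure D4:**
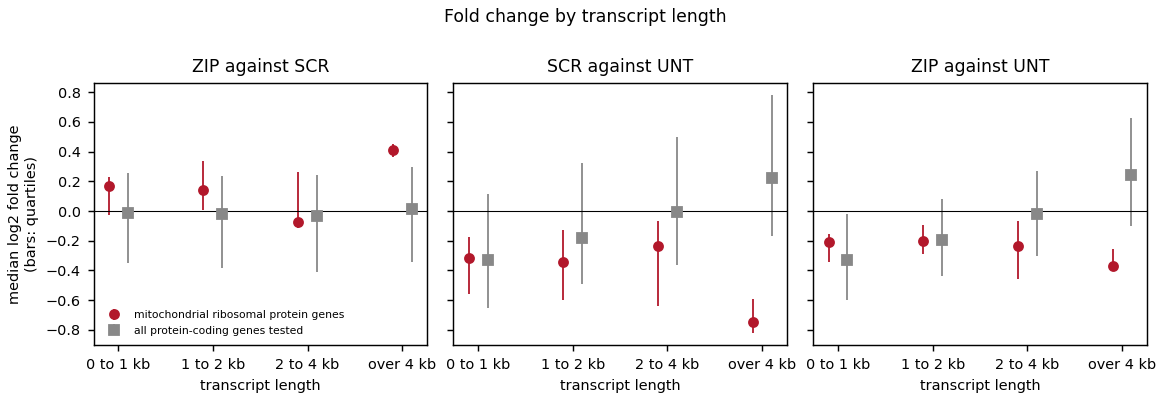
Median log2 fold change (points) with quartiles (bars) by transcript length in each comparison, for the members (red) and all protein-coding genes tested (grey). The grey points climb with length in both comparisons with UNT, at -0.33 for the shortest band and at 0.22 and 0.24 for the longest, and stay between -0.03 and 0.02 between ZIP and SCR.

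Across all 5 libraries, 40 of the 74 members (54.1%) had both ZIP libraries above both SCR libraries and UNT above all of these, 24 of the large and 16 of the small subunit. The same order held for 15.1% of the 15832 genes tested. The comparisons that make up this order share their libraries, so it is a description of levels. UNT above SCR above ZIP held for 10 members, where 9.10% of all genes had it, and ZIP above UNT above SCR for MRPL1, MRPL19, MRPL24, MRPL42 and MRPS30, where 8.84% of all genes had it. SCR above UNT above ZIP held for 7 members, MRPL33, MRPL35, MRPS9, MRPS10, MRPS18A, MRPS27 and MRPS36, where 9.46% of all genes had it, which was also the share of the members. No member had all 3 groups apart with UNT lowest, an order that 16.0% of all genes had with SCR highest and 10.1% with ZIP highest. In the remaining 12 members at least a pair of groups overlapped. Among them MRPL44 and MRPL9 had UNT below all 4 other libraries while ZIP and SCR overlapped, and MRPL9 passed the test in none of the comparisons.

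The summed level of the subunits followed the most common order. The large subunit genes summed to 3042 and 2981 CPM in ZIP libraries, 2804 and 2795 CPM in SCR libraries and 3483 CPM in UNT. The small subunit genes summed to 1887 and 1863 CPM in ZIP, 1666 and 1642 CPM in SCR and 2158 CPM in UNT. ZIP stood at 1.08 times SCR for the large and 1.13 times for the small subunit, and SCR at 0.804 and 0.766 times UNT. As shares of all counts without scaling, the members took 0.488% and 0.480% in ZIP, 0.462% and 0.457% in SCR and 0.540% in UNT.

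**Figure D5:**
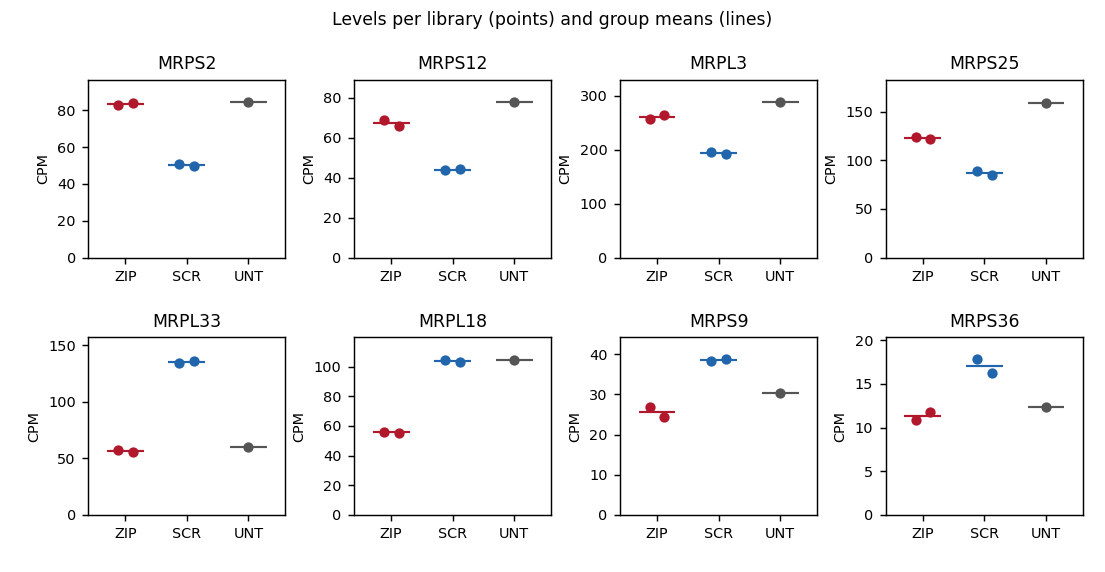
Level in CPM (vertical axis, from 0) of 8 members in each library (points) with the group mean (line), ZIP, SCR and UNT from left to right. In the upper row SCR is lowest, with MRPS2 near 50 CPM against more than 80 in the other groups. In the lower row ZIP is below SCR, and UNT lies with ZIP for MRPL33 and with SCR for MRPL18.

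Other genes of mitochondrial translation were read in the same fit from lists defined by function. Beside the counts of these lists stand the shares of all genes tested. These were 32.2% higher and 33.2% lower in ZIP against SCR, and 32.7% and 32.2% in SCR against UNT. In ZIP against UNT they were 28.5% and 29.7%. Of 5 mitoribosomal proteins outside the MRP naming, GADD45GIP1 of the large subunit had 109 and 109 CPM in ZIP libraries, against 80.9 and 77.6 CPM in SCR libraries (log2 fold change 0.46 ± 0.032, adjusted p = 9.1e-11), AURKAIP1 of the small subunit was lower (log2 fold change -0.14 ± 0.033, adjusted p = 0.000786), and DAP3, CHCHD1 and PTCD3 did not pass. Of 26 assembly and rRNA modification factors 16 were higher and 1 lower in ZIP than in SCR cells, with a median log2 fold change of 0.22, and 22 were lower and none higher in SCR than in UNT. RPUSD4 and TRUB2, pseudouridine synthases that act on mitochondrial RNA, had log2 fold changes of 0.61 ± 0.037 and 0.59 ± 0.046 in ZIP against SCR, and RBFA, which binds the small subunit rRNA during assembly, of 0.54 ± 0.043.

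Translation factors were mixed, with 8 of 17 higher (47.1%) and 5 lower (29.4%) in ZIP than in SCR cells and a median of 0.08. The elongation factors TUFM, GFM1 and GUF1 were among the higher, and TUFM, which brings aminoacyl-tRNA to the ribosome, had 444 and 431 CPM in ZIP libraries, against 312 and 309 CPM in SCR libraries (log2 fold change 0.50 ± 0.026, adjusted p = 1.35e-12). GFM1, the mitochondrial elongation factor G, rose by a log2 fold change of 0.71 ± 0.028 and GUF1 by 0.82 ± 0.033. Of 20 genes for mitochondrial aminoacyl-tRNA synthetases and the amidotransferase 13 were higher and 4 lower, with a median of 0.19, and MARS2, which charges the methionine tRNA, rose by 0.84 ± 0.037, CARS2 by 0.47 ± 0.032 and LARS2 by 0.48 ± 0.040.

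Of 22 genes of mitochondrial transcription and RNA processing 18 were higher and 1 lower in ZIP than in SCR cells, with a median of 0.32. POLRMT, the mitochondrial RNA polymerase, had 125 and 122 CPM in ZIP libraries, against 70.7 and 70.8 CPM in SCR libraries (log2 fold change 0.80 ± 0.032, adjusted p = 9.6e-15), and HSD17B10, a subunit of mitochondrial ribonuclease P, and SUPV3L1, an RNA helicase, rose by 0.74 ± 0.035 and 0.59 ± 0.033. The mRNAs that the mitochondrial ribosome translates were all higher in ZIP, 13 of 13 with a median of 0.67, and all lower in SCR than in UNT, with a median of -1.02. They took 5.53% and 5.57% of all counts in ZIP, 3.64% and 3.76% in SCR and 7.25% in UNT. MT-CYB, cytochrome b, had 3940.3 and 3932 CPM in ZIP libraries, 1962 and 2093 CPM in SCR libraries and 4113 CPM in UNT, MT-ND4 rose by 0.85 ± 0.014 and MT-ATP6 by 0.87 ± 0.019 in ZIP against SCR.

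The nuclear genes for subunits of the respiratory chain and ATP synthase were less one-sided between ZIP and SCR cells. Of 77 tested, 39 were higher (50.6%) and 22 lower (28.6%) in ZIP, with a median of 0.11. In SCR against UNT 62 of 78 were lower and 5 higher. NDUFB10 of complex I, COX5A of complex IV and ATP5F1A of the ATP synthase rose by 0.54 ± 0.031, 0.44 ± 0.027 and 0.38 ± 0.019 in ZIP against SCR. The cytosolic ribosomal proteins ran the other way, with 9 of 82 higher and 56 lower in ZIP than in SCR cells and a median of -0.15. They were also lower against UNT, 78 of 82 in SCR and 77 of 82 in ZIP, with medians of -0.57 and -0.75. RPL37 and RPS18 had log2 fold changes of -0.50 ± 0.022 and -0.41 ± 0.017 in ZIP against SCR. The difference between the 2 kinds of ribosome was not tested.

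Of 10 tested transcription factors and coactivators known for nuclear genes of mitochondria 5 were higher and 1 lower in ZIP than in SCR cells. The other 4 passed in neither direction, and the log2 fold changes ran from -0.15 to 0.64, with a median of 0.11. In SCR against UNT 2 were higher and 4 lower, and in ZIP against UNT 4 were higher and 3 lower. Those named next were picked by smallest p in ZIP against SCR. MYC, a factor that binds the E-box, had 1223 and 1214 CPM in ZIP libraries, 926 and 933 CPM in SCR libraries and 2033 CPM in UNT (log2 fold change 0.39 ± 0.019, adjusted p = 3.2e-13 in ZIP against SCR). PPRC1 and PPARGC1B, coactivators of the PGC-1 family, rose by 0.64 ± 0.029 and 0.44 ± 0.040.

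Overlapping genes and copies limit single members. Exons of 39 members overlap another annotated gene and 32 members have an annotated pseudogene, and how the counting treated strand is not stated. MRPL33 shares exon sequence with BABAM2 on the same strand, which had 31.5 and 32.3 CPM in ZIP libraries, against 38.9 and 38.3 CPM in SCR libraries (log2 fold change -0.28 ± 0.050, adjusted p = 7.03e-05) and lay higher in SCR than in UNT by a log2 fold change of 0.33 ± 0.065. MRPL53 shares exon sequence with CCDC142, at -0.79 ± 0.098 in ZIP against SCR, where MRPL53 was also lower. In SCR against UNT CCDC142 rose by 0.67 ± 0.12, where MRPL53 did not pass, and in ZIP against UNT CCDC142 did not pass, where MRPL53 was lower. MRPS12 overlaps SARS2 on the other strand, at 0.37 ± 0.052, MRPS6 overlaps SLC5A3, at 0.66 ± 0.044, and MRPL43 overlaps TWNK, at 0.63 ± 0.039. MRPL18 has neither an annotated pseudogene nor an exon overlap, nor have MRPS23 and MRPS26. Without the members that overlap, 21 of 35 were higher and 5 lower in ZIP than in SCR cells, and without those that have a pseudogene 25 of 42 were higher and 5 lower.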

How the data were processed

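Total RNA of 5 HL60 libraries was made into libraries with a small RNA kit and read on a HiSeq 2500, per the labels' protocols. In the deposited table protein-coding genes held 96.6% to 97.1% of the counts per library and microRNA genes at most 0.00123%, which is not what such a kit is made to capture, so how the libraries were made is uncertain. The authors deposited 1 table of raw read counts per gene. Per the submitters' processing notes Bowtie2 and featureCounts were used, while the series' design text, in the labels, names CASAVA 1.8.2, TopHat 2 and HTSeq. The genome build, annotation and strand setting behind the counts were not stated, so symbols, gene types and coordinates came from GENCODE release 29 by Ensembl gene ID, which named 44305 of the 51055 rows. No column of another sample was present.

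Counts were tested with edgeR 4.0.16 (R 4.3.3, limma 3.58.1) by its quasi-likelihood test after filterByExpr (minimum count 10, minimum total 15) and TMM scaling, with p-values adjusted by Benjamini and Hochberg over all genes tested and a threshold of 0.05. ZIP against SCR was fitted on those 4 libraries, and both comparisons with UNT on all 5, each with 2 residual degrees of freedom. Fold changes are log2 of the group listed first over the second, with SE. The SE was derived from the test, as the absolute log2 fold change divided by the square root of its F statistic. All adjusted p in the text come from this test unless DESeq2 1.42.0, an alternative, is named. The function that fits the counts was run on simulated counts in which few genes changed. In these data most genes passed the test, a setting which that run does not cover. Replicates of a group differed by more than counting noise (chi-square per gene 1.79 between the ZIP and 2.47 between the SCR libraries). The counts limit precision at low levels, where 3 counts equal 0.098 to 0.125 CPM.

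Named in each comparison and subunit were the 5 largest rises and 5 largest falls among called members whose libraries did not overlap, with MRPL12, MRPL58, MRPL33, MRPL41, MRPS12, MRPS6, MRPS18B, MRPS36, MRPS30 and MRPS18A, and up to 3 members of each related list by smallest p. MRPL12 was not analysed here. Members, lists and motifs were chosen with earlier results of these data known, and the split by descent was written after the values were seen. Promoter and microRNA sequences came from RefSeq (GRCh38.p14).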

Additional observations from a re-analysis of the deposited data

How the results depend on the processing

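Library totals in place of TMM moved the median of all genes to 0.13 in SCR against UNT and -0.06 in ZIP against SCR. The members' medians were then 0.106 in ZIP against SCR, -0.229 in SCR against UNT and -0.153 in ZIP against UNT, with 19 members lower in the first, 10 higher in the second and 5 higher in the last. The summed level was 1.03 (large) and 1.09 (small) in ZIP over SCR, 0.867 and 0.827 in SCR over UNT, and 0.896 and 0.900 in ZIP over UNT. DESeq2's size factors gave 0.807 for the large subunit in SCR over UNT. MRPL18, not called in SCR against UNT, reversed to 0.097 with library totals. DESeq2 called 7 members lower in ZIP against SCR, where 3908 of all 14643 genes tested were lower. It called 32 members in ZIP against UNT, 1 higher and 31 lower. The cause of these shifts was not tested.

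Fewer members by construction were left in 2 alternatives. Without members that have a pseudogene, 30 of 42 were called in ZIP against SCR (25 higher, 5 lower), 37 in SCR against UNT (34 lower) and 33 in ZIP against UNT (30 lower). Without members that overlap another gene, 26 of 35 were called (21 higher, 5 lower), then 29 (1 higher, 28 lower) and 24 (1 higher, 23 lower). Past the limit of size added after seeing the data, 23 were called in ZIP against SCR (17 higher, 6 lower), 37 were lower in SCR against UNT, and 22 were called in ZIP against UNT (1 higher, 21 lower).

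With 1 library left out, the members' median ranged over 0.135 to 0.207 in ZIP against SCR and over -0.224 to -0.180 in ZIP against UNT. Of 836 results for 38 named members under all these settings, 770 kept their direction and side of the threshold, 60 lost the call, 5 gained it and 1 reversed. Deviations of same-numbered libraries from their group means had a correlation of 0.017 over genes. With 2 pairs this cannot show whether the replicate numbers pair the samples. The replicate block gave 57 members called in ZIP against SCR, 44 higher and 13 lower, against 54 without it. With the block 4790 of all 14643 genes tested were higher and 4919 lower. With 2 libraries a group and 1 UNT library, small differences rest on few values.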
